A study of Mus musculus with 18 samples.

Results

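The comparison described here sets the erbB2-negative fraction of a 1:50 co-culture against unmixed Comma-D cells, with 3 arrays on either side, so that 6 of the 18 arrays of the series enter it. Its members were chosen by sample title, and 19938 genes were compared, each through 1 probe set. Comma-D is a mouse mammary epithelial line derived from normal mammary tissue, labelled normal and negative for erbB2 and for phosphorylated erbB2. MMTV-neu cells are a mouse mammary tumour line carrying the neu (erbB2) oncogene under the mouse mammary tumour virus promoter, labelled cancer and positive for both. The lines were mixed at 1:50 or 1:1, grown together in the Comma-D medium, detached with trypsin, labelled with an anti-erbB2 antibody and separated on a magnetic column. The flow-through of each mixture is its erbB2-negative fraction, labelled normal, and the retained cells are its erbB2-positive fraction, labelled redirected at 1:50 and cancer at 1:1. Unmixed MMTV-neu cells were grown in another medium, DMEM with more serum, while Comma-D and every co-culture shared DMEM/F12 with low serum, insulin and EGF. The titles do not say which line supplied the 50 parts. The protocol text is the same for every sample, and whether the unmixed Comma-D cells passed the column is not given in the sources used here, so the effects of co-culture and of sorting cannot be told apart. Nothing in the labels says that the 3 samples of a group were separate cultures. The p-values therefore measure only the spread between samples, pooled over all 18 arrays in 6 groups. The number of arrays limits the precision.

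The mammary duct has an inner luminal layer marked by keratins such as Krt8 and Krt18 and an outer basal, contractile layer marked by Krt5 and Krt14, and Comma-D cultures are known to hold cells of both kinds. Growth factor receptors of the EGF and erbB2 family signal through the ERK kinases, which switch on immediate early transcription factors within minutes and, later, inhibitors that damp the same pathway.

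At the threshold used, the fraction differed from Comma-D at a small share of genes. Falls outnumbered rises in the fit of all 18 arrays, while rises outnumbered falls in a fit of the 6 compared arrays alone. Decorin (Dcn), insulin-like growth factor 2 (Igf2), Itih2 and Cyp2f2 fell most, and the calcium sensor Vsnl1, the pantetheinase Vnn1, the desmosomal cadherin Dsc3 and the basal keratin Krt5 were among the largest rises. A gene was called where limma's Benjamini-Hochberg adjusted p over all 19938 genes was under 0.05. By that rule 334 genes (1.68%) were called, 118 higher (0.592%) and 216 lower (1.08%) in the fraction, while 1751 had an unadjusted p under 0.05. Of the called genes 25 rose and 76 fell by at least 1 log2 unit. The called rises had a median of 0.65 log2 units and ran from 0.34 to 2.27, and the called falls had a median of -0.87 and ran from -0.36 to -3.41. Over all genes the median difference was 0.02. Rises made up 35.3% of the calls, against 30.3% of 132 calls with arrays centred on reference genes and 20.4% of 157 calls after quantile normalization. They made up 55.5% of 1045 calls with the 6 compared arrays alone and 59.7% of 2425 calls with array weights, whose estimation stopped before convergence.

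All values are log2 RMA levels, and differences are the fraction minus Comma-D in log2 units. The standard deviation within a group had a median of 0.08 both in Comma-D and in the fraction, and of 0.18 in MMTV-neu. Standard errors used the spread pooled over all 6 groups, and the median standard error of a difference was 0.14. Over all genes, which do not vary independently and so only describe the arrays, the Pearson correlation was 0.9883 to 0.9918 between arrays of the fraction and of Comma-D, 0.9920 to 0.9955 within the fraction and 0.9964 to 0.9972 within Comma-D. Single arrays mattered: 123 of the 334 called genes, 24 higher and 99 lower, were called whichever of the 6 arrays was left out, and the number of calls then ranged from 146 without replicate 2 of the fraction to 289 without its replicate 1. No called gene changed sign in these fits. Few calls lay at low levels: with genes split by level into 4 groups of like size, the lowest group held 5 calls, the next 63, the third 163 and the highest 103.

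**Figure D1:**
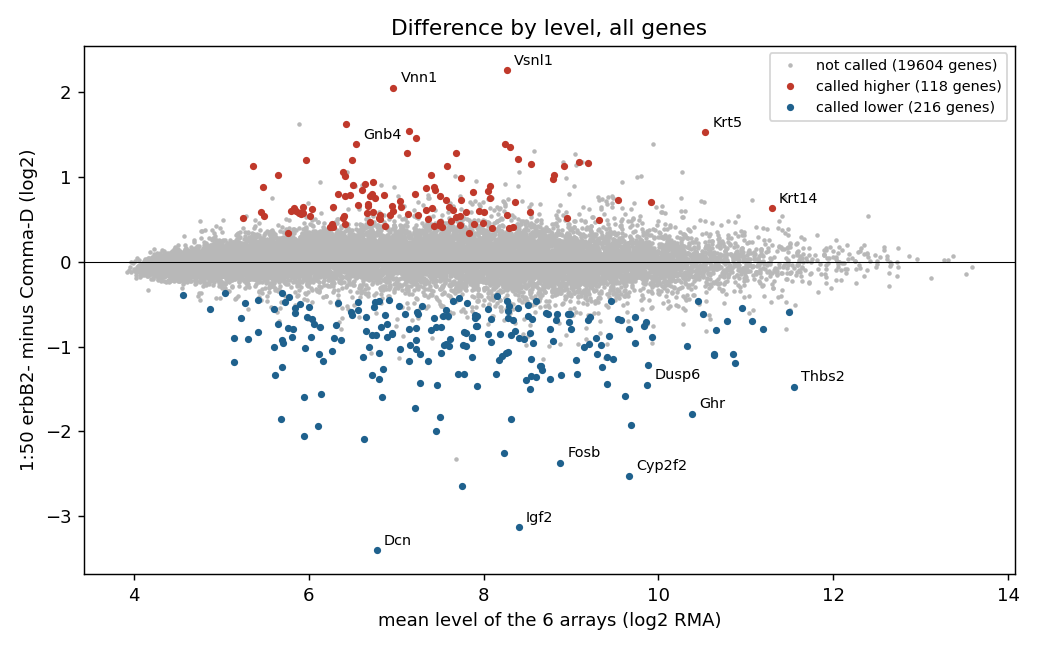
Each point is a gene, with its mean level over the 6 arrays (log2 RMA) on the horizontal axis and the difference, 1:50 erbB2-negative fraction minus Comma-D (log2 units), on the vertical axis. The 216 genes called lower (blue) reach -3.41 at Dcn and the 118 called higher (red) reach 2.27 at Vsnl1, with uncalled genes in grey.

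Secreted matrix and growth factor genes led the falls. Dcn encodes a small collagen-binding proteoglycan, and it read 8.55, 8.54 and 8.35 on the Comma-D arrays against 5.28, 5.08 and 4.86 on those of the fraction. The groups lay far apart, and the fraction also lay below MMTV-neu, which read 5.67 to 5.92. The difference was -3.41 ± 0.16 (SE, limma adjusted p = 8.84e-10), a level 10.6-fold lower. The fraction's mean for Dcn was under the array median (6.33 to 6.42 on the 6 arrays), where array background flattens ratios. In bulk RNA such as this, fewer cells of a kind and less RNA per cell cannot be told apart.

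Igf2, a growth factor that acts on insulin-like growth factor receptors, read 9.79, 9.90 and 10.22 in Comma-D and 6.80, 6.61 and 7.09 in the fraction. It fell by 3.13 ± 0.14 (SE, adjusted p = 4.76e-10), and the fraction again lay below MMTV-neu (7.52 to 7.60). Itih2, a heavy chain that binds hyaluronan, read 9.01 to 9.15 in Comma-D and 6.16 to 6.82 in the fraction and fell by 2.65 (adjusted p = 1.61e-08). Angpt1, a ligand of the endothelial receptor Tie2, read 8.41 to 8.51 against 6.30 to 6.69 and fell by 1.99 (adjusted p = 3.66e-07). All of these calls were kept in every alternative in which the gene was tested.

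Other secreted factors fell beside them. Hgf, the ligand of the receptor Met, read 6.20 to 6.35 in Comma-D and 4.87 to 5.05 in the fraction and fell by 1.34 (adjusted p = 3.57e-06), again to below the array median. Kitl, the ligand of Kit, read 9.53 to 9.58 against 7.87 to 8.65 and fell by 1.34 (adjusted p = 0.000161). Bmp4, a morphogen of the TGF-beta family, read 9.39 to 9.52 against 7.87 to 8.34 and fell by 1.38 (adjusted p = 7.72e-05), whereas Bmp2 of the same family rose by 1.03 (adjusted p = 0.00353). The chemokine Cxcl12 fell by 1.10 (adjusted p = 0.00124) from 11.17 to 11.22 in Comma-D to 9.90 to 10.35 in the fraction. Of 27 measured growth and angiogenic factors, 3 fell and 1, Pdgfa, rose (14.8%, against 1.68% of all genes). The list median was -0.01.

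In the insulin-like growth factor axis, 3 of 17 measured genes fell and 1 rose (23.5%, against 1.68% of all genes). The list median was -0.33. Igf1, the second ligand, read 7.90 to 8.02 in Comma-D and 6.54 to 7.16 in the fraction and fell by 1.17 (adjusted p = 0.00132). The binding protein Igfbp3 went the other way, from 6.35 to 6.62 up to 7.60 to 7.93, a rise of 1.28 ± 0.17 (SE, adjusted p = 0.000392). Igfbp2 fell by 0.90 (adjusted p = 0.048), and that call was lost without replicate 2 or 3 of the fraction or without any Comma-D array (highest adjusted p over the alternatives 0.355). The receptor gene Igf1r differed by -0.33 and was not called. The calls of Igf2, Igf1 and Igfbp3 held in every alternative.

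Receptors on the cell surface were called in both directions. Of 29 receptor tyrosine kinases outside the erbB family, Pdgfra, Ddr2 and Ntrk3 fell and Flt1 and Ret rose (17.2%, against 1.68% of all genes). The list median was 0.07. Pdgfra, the platelet-derived growth factor receptor that marks fibroblasts, read 10.61, 10.58 and 10.77 in Comma-D and 9.69, 8.58 and 7.89 in the fraction. The fraction's arrays were spread widely but all lay under Comma-D, and the gene fell by 1.93 ± 0.35 (SE, adjusted p = 0.00681). Ghr, the growth hormone receptor, read 11.25 to 11.34 against 9.15 to 9.74 and fell by 1.80 (adjusted p = 1.84e-05). Ddr2, a receptor for fibrillar collagen, fell by 1.01 (adjusted p = 0.000217), Ntrk3, a neurotrophin receptor, by 0.79 (adjusted p = 0.00148, and 0.197 with centring) and Tgfbr3, a TGF-beta co-receptor, by 1.51 (adjusted p = 0.0056, and 0.0842 after quantile normalization). Flt1, a receptor for vascular endothelial growth factors and also a member of the endothelial list, rose by 0.57 (adjusted p = 0.0104, highest over the alternatives 0.28) and Ret, the receptor of glial-derived neurotrophic factors, by 0.62 (adjusted p = 0.0302, highest 0.357). Neither rise was called with centring or quantile normalization, without replicate 3 of the fraction or without Comma-D replicate 2.

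Among 30 proteoglycan and matricellular genes, 5 fell (16.7%, against 1.08% of all genes) and none rose, with a median of -0.05. They were Dcn, Itih2, Thbs2, Fbln1 and Ccn1. Without single arrays the number of falls was 2 to 5, at its lowest without replicate 2 of the fraction or without any one Comma-D array, and 2 members rose without replicate 3 of the fraction. With centring on reference genes 2 fell and 1 rose, and after quantile normalization 3 fell and 1 rose. Thbs2, a secreted inhibitor of vessel growth, read 12.26 to 12.33 in Comma-D and 10.07 to 11.54 in the fraction and fell by 1.47 (adjusted p = 0.034, highest over the alternatives 0.194). Aspn and Ogn, proteoglycans of the same family as Dcn, had differences of 1.63 and 1.30 and were not called (adjusted p = 0.108 and 0.271). For Aspn the fraction's arrays read 6.11, 7.90 and 6.11 against 4.92 to 5.25 in Comma-D. Of 21 collagen genes 2 rose (9.52%, against 0.592% of all genes), Col1a2 by 0.52 and Col7a1 by 0.54. Both calls were lost in 9 of the 15 alternatives.

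Markers of fibroblasts were read on the same arrays. Of 15 such markers, Dcn, Pdgfra and Fbln1 fell and Col1a2 rose (26.7%, against 1.68% of all genes). The summed linear level of the list ran from 10161 to 10452 in Comma-D and from 6925 to 10584 in the fraction. These ranges overlapped. The part of fibroblasts in these falls was not tested. Endothelial markers had 1 member of 14 over the array median in either group and sums of 737 to 766 in Comma-D and 799 to 819 in the fraction. Leukocyte markers had 2 of 19 over the median in Comma-D and 3 in the fraction, with sums of 1159 to 1230 and 1080 to 1088. Of 10 adipocyte markers, lipoprotein lipase (Lpl) fell by 1.59 (adjusted p = 1.09e-07) to below the array median.

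**Figure D2:**
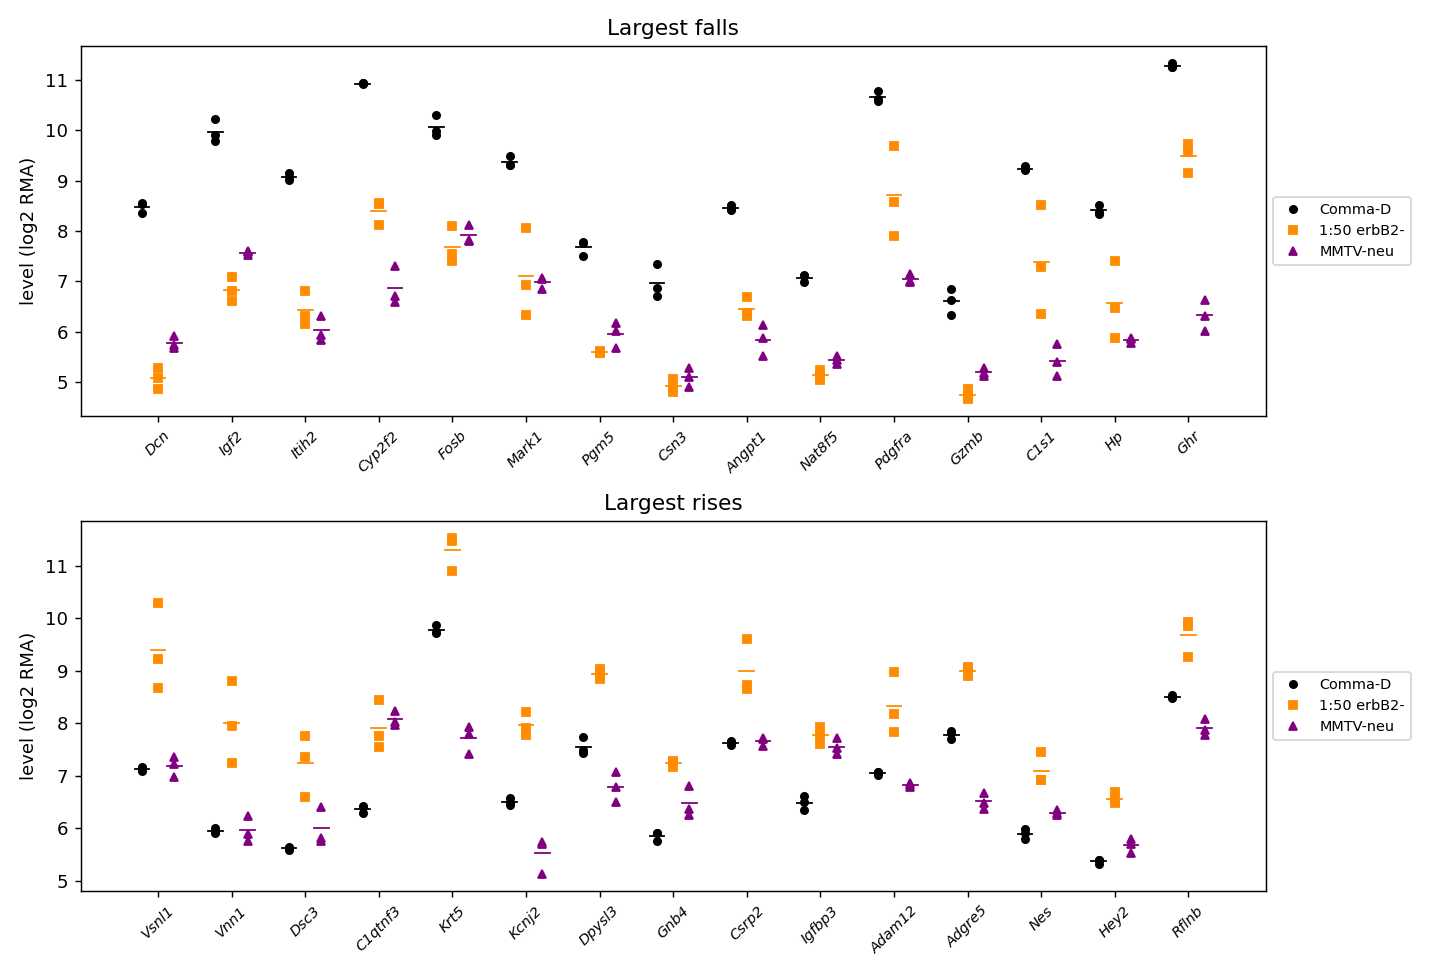
Levels (log2 RMA) on single arrays of the 15 called genes with the largest falls (top) and rises (bottom), with Comma-D as circles, the 1:50 erbB2-negative fraction as squares, MMTV-neu as triangles and group means as short lines. For every gene drawn the fraction lies wholly on one side of Comma-D, and for Dcn, Igf2, Pgm5, Nat8f5 and Gzmb it also lies below MMTV-neu.

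Of 17 measured milk genes 2 fell (11.8%, against 1.08% of all genes) and none rose, with a median of -0.07. Csn3, the casein that stabilises milk micelles, read 6.87, 6.70 and 7.35 in Comma-D and 4.81, 5.06 and 4.88 in the fraction and fell by 2.06 (adjusted p = 1.09e-07), to below the array median. Ltf, which encodes lactoferrin, an iron-binding milk protein, fell by 1.72 (adjusted p = 0.000224). The remaining 15, the caseins Csn2 and Csn1s1 included, were not called. Cyp2f2, a cytochrome P450, read 10.91 to 10.94 against 8.12 to 8.55 and fell by 2.52 (adjusted p = 1.82e-06). The haemoglobin-binding acute phase protein Hp fell by 1.84 (adjusted p = 0.00456) and Socs3, which damps signalling from cytokine receptors, by 1.24 (adjusted p = 0.000392).

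Of 26 immediate early genes measured, 8 fell (30.8%, against 1.08% of all genes) and none rose, with a median of -0.47. Fosb, an AP-1 subunit, read 9.98, 9.91 and 10.30 in Comma-D and 7.55, 7.41 and 8.10 in the fraction and fell by 2.37 ± 0.29 (SE, adjusted p = 0.000207). Fos, which encodes a subunit of the same family, read 10.34, 10.41 and 10.49 against 9.05, 8.54 and 8.89 and fell by 1.59 ± 0.16 (SE, adjusted p = 2.64e-05). For both genes every fraction array lay more than 1 log2 unit under the lowest Comma-D array.

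Zinc-finger and nuclear receptor members of the list were also lower. Egr1 fell by 1.22 (adjusted p = 0.0166), Egr3 by 1.15 (adjusted p = 0.00762), and the orphan receptor Nr4a1 by 1.09 (adjusted p = 0.0278). Fosl1, Egr2 and Ccn1 made up the rest, at -0.95, -0.81 and -0.70. Egr3 read 10.04 to 10.29 in MMTV-neu, above Comma-D at 8.62 to 8.85, while the fraction lay at 7.53 to 7.68. Members named as not called include Jun at -0.53, Junb at -0.32 and Atf3 at -0.45, whose fraction arrays read 8.72, 9.23 and 9.89 around the Comma-D range of 9.71 to 9.77. With single arrays left out the list had 3 to 7 falls, the fewest without Comma-D replicate 1 and 4 without replicate 2 of the fraction or Comma-D replicate 2 or 3. It had 5 with centring on reference genes, 3 after quantile normalization and 11 with the 6 compared arrays alone. Over all genes the falls went from 216 to 92, 125 and 465 in those fits. The call of Egr1 was lost after quantile normalization or without any one of 5 arrays (highest adjusted p over the alternatives 0.111), and so was that of Nr4a1 (highest 0.161). That of Egr3 was lost with either rescaling or without Comma-D replicate 1 (highest 0.235), while Fos and Fosb were called in every alternative.

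Of 20 feedback genes downstream of ERK 6 fell (30.0%, against 1.08% of all genes) and none rose, with a median of -0.31. Dusp6, the phosphatase that inactivates ERK, read 10.60, 10.53 and 10.65 in Comma-D and 9.27, 9.29 and 8.87 in the fraction and fell by 1.45 ± 0.19 (SE, adjusted p = 0.000392). Errfi1, an inhibitor of EGF receptor family kinases, read 11.37 to 11.44 against 10.27 to 10.37 and fell by 1.09 ± 0.13 (SE, adjusted p = 0.00012). Both calls were kept in every alternative.

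Of the remaining feedback genes, Spry1 and Spry2, which block signalling upstream of ERK, fell by 0.93 and 0.62, the transcription factor Etv5 by 0.90 and the phosphatase Dusp1 by 0.59. Centring on reference genes left 2 of the 6 calls and quantile normalization 3, while 10 members fell with the 6 compared arrays alone. Without single arrays there were 3 to 6, the fewest without Comma-D replicate 3. With the 6 compared arrays alone 465 of all genes fell, against 216 in the fit of all 18 arrays. Spry4 at -0.25, Etv4 at 0.11 and Dusp4 at -0.17 were not called.

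Among 17 ligands and receptors of the erbB family, 1 was called (5.88%, against 1.68% of all genes). Hbegf, a ligand of the EGF receptor, read 8.72 to 8.90 in Comma-D and 7.55 to 7.91 in the fraction and fell by 1.08 (adjusted p = 0.000162). Erbb2 itself read 8.12 to 8.32 in Comma-D and 8.17 to 8.36 in the fraction, a difference of 0.08 that was not called (95% interval -0.13 to 0.28). Egfr differed by 0.43 and Erbb3 by -0.05, neither called.

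**Figure D3:**
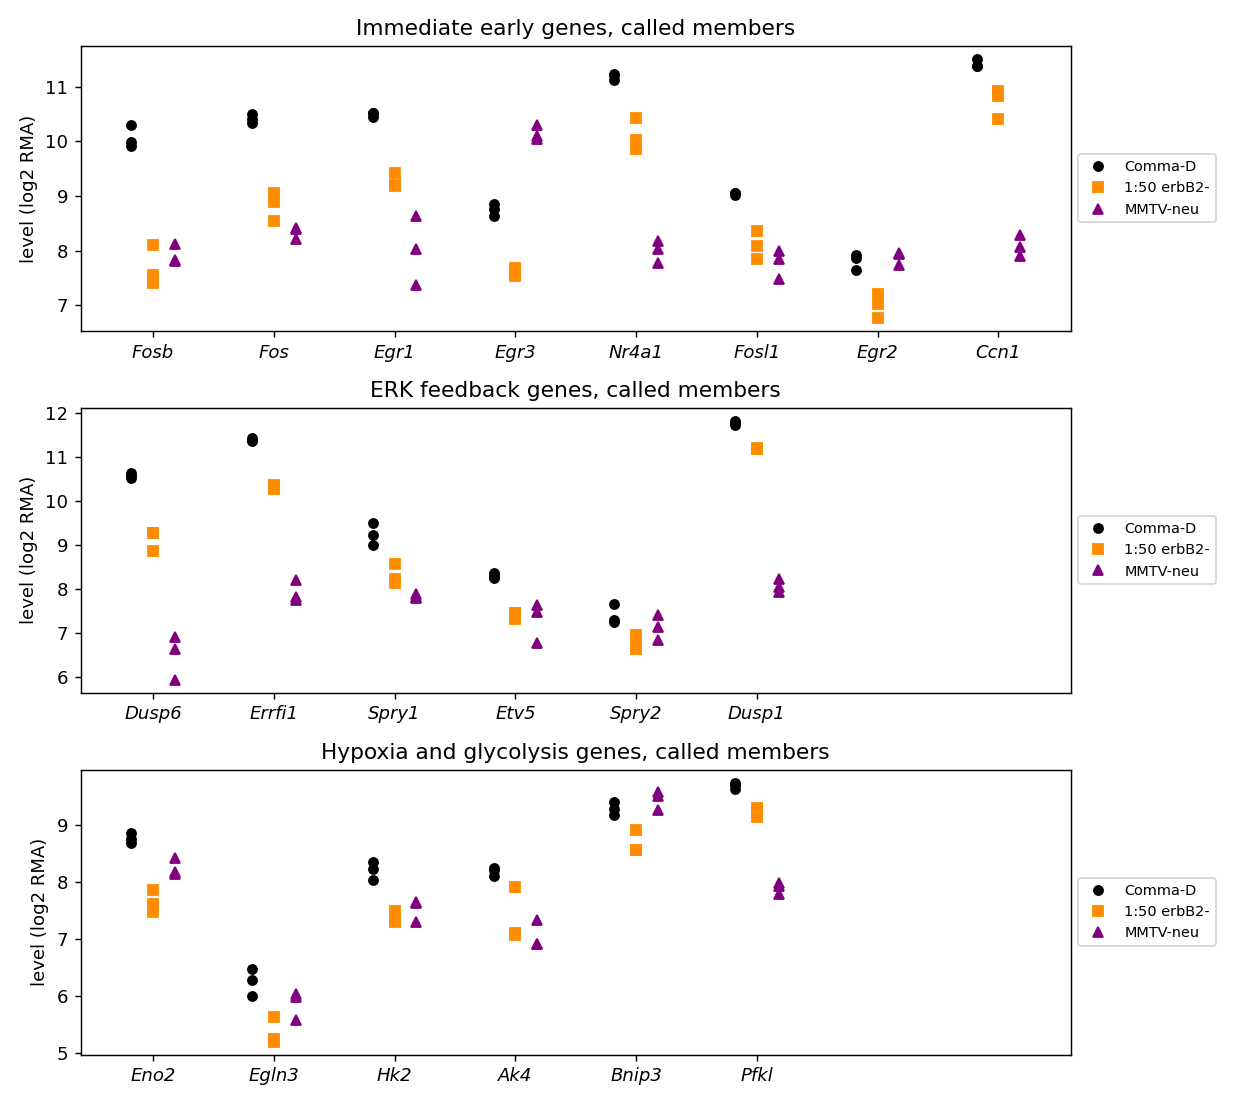
Levels (log2 RMA) on single arrays of the called members of 3 gene lists, with Comma-D as circles, the 1:50 erbB2-negative fraction as squares and MMTV-neu as triangles. In each of the members drawn the 3 fraction arrays lie below the 3 Comma-D arrays; for Egr3, Egr2, Bnip3 and Eno2 they also lie below MMTV-neu.

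Of 29 genes of glycolysis and of the response to low oxygen, 6 fell (20.7%, against 1.08% of all genes) and none rose. The list median was -0.22. Eno2, a glycolytic enolase, read 8.68, 8.75 and 8.86 in Comma-D and 7.87, 7.62 and 7.48 in the fraction and fell by 1.11 ± 0.14 (SE, adjusted p = 0.000313). Hk2, the first enzyme of glycolysis, read 8.05 to 8.36 against 7.30 to 7.49 and fell by 0.84 (adjusted p = 0.00212). Those calls were kept in every alternative. Egln3, an oxygen-sensing hydroxylase, fell by 0.89, the adenylate kinase Ak4 by 0.82, the mitophagy receptor Bnip3 by 0.61 and the phosphofructokinase subunit Pfkl by 0.46. Their calls were less steady, since 2 to 7 members fell when single arrays were left out, with 2 without replicate 2 of the fraction or Comma-D replicate 3, and 7 without replicate 1 of the fraction. With centring on reference genes 2 members fell and after quantile normalization 3. Glycolytic genes such as Ldha at -0.16 and Pgk1 at -0.22, and the glucose transporter Slc2a1 at 0.32, were not called.

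The start regions of these genes were searched for short motifs because members of a list moved together. The RefSeq windows (GRCm38.p6, 250 bases before to 50 after a start) were matched by symbol. The letters ACGTG or, on the other strand, CACGT, the core that hypoxia-inducible factors bind, occurred for 4 of the 6 hypoxia and glycolysis genes called lower (66.7%), 16 of the 22 not called that have a window (72.7%) and 5886 of 27025 genes in all (21.8%). The called and the uncalled members thus hold the letters at a like share, above that of all genes, and CACGTG counts on both strands. In the windows below, capitals mark each match, which begins at position -108 from the start in Bnip3 and at positions -226 and -52 from it in Hk2.
Bnip3 promoter, chr7:138909457-138909756, minus strand: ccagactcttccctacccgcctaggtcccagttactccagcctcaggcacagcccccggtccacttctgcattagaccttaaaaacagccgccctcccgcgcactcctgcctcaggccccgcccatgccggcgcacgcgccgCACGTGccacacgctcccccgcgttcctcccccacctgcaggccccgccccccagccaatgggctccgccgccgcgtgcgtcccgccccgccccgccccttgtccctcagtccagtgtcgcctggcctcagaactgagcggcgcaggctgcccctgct
Hk2 promoter, chr6:82774405-82774704, minus strand: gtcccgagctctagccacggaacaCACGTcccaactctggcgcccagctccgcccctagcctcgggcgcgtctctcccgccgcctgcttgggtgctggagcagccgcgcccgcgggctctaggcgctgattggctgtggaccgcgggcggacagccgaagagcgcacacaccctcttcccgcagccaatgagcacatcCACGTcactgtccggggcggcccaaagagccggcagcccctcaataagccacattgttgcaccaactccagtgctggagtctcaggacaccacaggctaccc

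The palindrome TGACGTCA, to which cyclic AMP response factors bind, occurred in 2 of 6 ERK feedback genes called lower, 0 of 10 uncalled ones and 549 of 27025 genes (2.03%). It was found in Dusp1 and in 1 of the windows of Errfi1, and its letters are in capitals below. Both windows also hold ACGTG or CACGT, which is not marked there. TGANTCA, the AP-1 element, which cannot match inside TGACGTCA, was found in none of the 6. The immediate early genes called lower had TGACGTCA in 0 of the 5 with a window, and the uncalled ones in 2 of 16 (12.5%). In that list the letters thus lay with uncalled members only. A match is a stretch of letters and does not show that a factor bound there.
Dusp1 promoter, chr17:26508423-26508722, minus strand: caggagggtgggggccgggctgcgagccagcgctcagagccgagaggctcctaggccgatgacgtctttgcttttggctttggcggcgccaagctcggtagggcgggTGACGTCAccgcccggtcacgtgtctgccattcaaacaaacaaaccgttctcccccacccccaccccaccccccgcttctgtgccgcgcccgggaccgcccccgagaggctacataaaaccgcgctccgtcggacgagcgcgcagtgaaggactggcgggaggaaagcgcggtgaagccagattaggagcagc
Errfi1 promoter, chr4:150854820-150855119, plus strand: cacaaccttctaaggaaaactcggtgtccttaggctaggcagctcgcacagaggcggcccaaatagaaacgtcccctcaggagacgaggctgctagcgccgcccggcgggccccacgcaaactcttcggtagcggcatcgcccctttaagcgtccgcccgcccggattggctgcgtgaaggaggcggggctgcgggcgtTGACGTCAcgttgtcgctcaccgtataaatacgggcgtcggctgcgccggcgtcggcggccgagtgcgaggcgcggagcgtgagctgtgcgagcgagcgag

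Of 296 microRNA genes measured, none rose and 4 fell, a share near that of all genes (1.08% lower). They were Mir145a and the 3 neighbours Mir23a, Mir27a and Mir24-2, and the median over all 296 was -0.03. The last 3 lie within 404 bases of the plus strand of chromosome 8 (GRCm38.p6) and are made from a shared transcript, so they are not independent. Mature products are the cluster's functional output, and RefSeq gives a 5p and a 3p product for each hairpin. Only the 3p products are shown, with the seed (bases 2 to 8), which pairs with target messages, in capitals.
miR-23a-3p: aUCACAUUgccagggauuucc
miR-27a-3p: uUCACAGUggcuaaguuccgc
miR-24-3p: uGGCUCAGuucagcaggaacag

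The 3 seeds differ, though those of miR-23a-3p and miR-27a-3p both begin with UCACA. Their target messages were not examined. Mir23a read 9.13, 9.21 and 9.29 in Comma-D and 8.03, 7.51 and 8.04 in the fraction and fell by 1.35 (adjusted p = 0.00268). Mir27a read 9.11 to 9.53 against 7.78 to 8.24 and fell by 1.23 (adjusted p = 0.00777), a call lost without replicate 2 of the fraction or Comma-D replicate 3 (highest adjusted p over the alternatives 0.0636). Mir24-2 fell by 0.91 (adjusted p = 0.00447, and 0.0752 with centring), to 7.00 to 7.33 from 7.92 to 8.29, and Mir145a, a microRNA of smooth muscle and fibroblasts, by 1.45 (adjusted p = 0.000347). Whole-transcript probe sets read precursor RNA, so these values do not measure the mature products.

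Basal keratins Krt5 and Krt14 and cadherins Cdh3 and Dsc3 were higher in the fraction. Krt5 read 9.73, 9.87 and 9.72 in Comma-D and 11.54, 11.48 and 10.90 in the fraction, with MMTV-neu far below at 7.42 to 7.92. The lowest fraction array lay more than 1 log2 unit above the highest Comma-D array, and the rise was 1.53 ± 0.26 (SE, adjusted p = 0.00353), 2.89-fold. Krt14, its pairing partner, read 10.99, 10.99 and 10.96 against 11.72, 11.64 and 11.47, a rise of 0.63 (adjusted p = 0.039). Cdh3, the P-cadherin of basal cells, rose by 1.14 (adjusted p = 0.00424) from 8.30 to 8.40 up to 9.10 to 9.70, and Dsc3, a desmosomal cadherin, by 1.62 (adjusted p = 0.02, highest over the alternatives 0.137). These cadherins were the 2 called among 29 junction and adhesion genes (6.9%, against 1.68% of all genes), whose median was 0.05. The keratins Krt17 at 0.71, Krt15 at 0.33, Krt16 at 0.20 and Krt6a at -0.03 were not called.

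Of 29 basal and myoepithelial markers 4 rose (13.8%, against 0.592% of all genes) and none fell. The list median was 0.39 and 25 members lay above 0, as did 11007 of all 19938 genes. The others called were Itgb4, the hemidesmosome integrin, at 0.71 and Jag2 at 0.99. Laminin and smooth muscle members such as Lamb3 at 0.68, Actg2 at 1.39 and Acta2 at 0.20 were not called. Only Krt5 was called without either replicate 1 or 2 of the fraction or without any one Comma-D array, so the count of 4 fell to 1 there. It was 2 with either rescaling or without MMTV-neu, 8 with the replicate block and 11 with the 6 compared arrays alone, and Krt14 reached an adjusted p of 0.187. Over all genes the rises went from 118 to 163 with the replicate block and 580 with the 6 compared arrays alone. None of 26 luminal markers was called (against 1.68% of all genes, list median 0.05), with Krt8 at 0.49 and Krt18 at -0.36. The summed level of the basal list was 26761 to 26928 in Comma-D and 33403 to 39677 in the fraction, and that of the luminal list 13007 to 13456 and 12559.5 to 13284.

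The Jagged ligands of the Notch pathway rose, and the Delta ligands Dll1 at -0.30, Dll3 at 0.21 and Dll4 at 0.10 were not called. Jag1 read 7.89, 7.95 and 8.04 in Comma-D and 9.16, 9.46 and 8.74 in the fraction and rose by 1.16 (adjusted p = 0.0146, highest over the alternatives 0.104). Jag2, also counted in the basal list, read 7.13 to 7.34 against 7.79 to 8.66, a rise of 0.99 (adjusted p = 0.0172, highest 0.255). Hey2, a transcriptional repressor induced by Notch, read 5.31 to 5.40 against 6.48 to 6.68 and rose by 1.20 (adjusted p = 0.00103) in every alternative tested, while Hes1 and Hey1, other targets, stood at -0.47 and -0.41, uncalled. Rbpj, the DNA-binding partner of the Notch receptors, fell by 0.62 (adjusted p = 0.0112, highest 0.27). Of 23 pathway genes 3 rose and 1 fell (17.4%, against 1.68% of all genes). Without replicate 2 of the fraction or without any one Comma-D array only 1 rise was called.

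Several of the largest single rises belong to none of the lists. Vsnl1 read 7.10, 7.14 and 7.16 in Comma-D and 10.29, 9.23 and 8.68 in the fraction, a rise of 2.27 ± 0.38 (SE, adjusted p = 0.00338), and MMTV-neu resembled Comma-D at 6.97 to 7.36. Kcnj2, an inward-rectifier potassium channel, read 6.44 to 6.57 against 7.77 to 8.20 and rose by 1.46 (adjusted p = 0.00419). Both calls were lost only after quantile normalization (adjusted p = 0.0718 and 0.0803). C1qtnf3, a secreted protein related to complement C1q, rose by 1.54 (adjusted p = 0.00332), and Gnb4, a G protein beta subunit, by 1.39 (adjusted p = 0.000131), both in every alternative. Vnn1 read 8.80, 7.95 and 7.23 against 5.90 to 6.00, a rise of 2.06 whose call was lost without any one of 5 arrays (adjusted p = 0.0202, highest 0.236).

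Position relative to both lines was counted for all genes. The 3 arrays of the fraction lay above all 6 arrays of the unmixed lines at 6.39% of genes and below all 6 at 5.52%. Of the genes called higher, 63 of 118 (53.4%) lay above both lines, among them Vsnl1, Krt5, Krt14, Kcnj2, Jag1 and Gnb4. Of those called lower, 48 of 216 (22.2%) lay below both, among them Dcn, Igf2, Lpl, Bmp4 and Eno2. The calls used the same Comma-D arrays, so these shares describe the called genes and are no separate test.

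Of 26 interferon-stimulated genes 4 rose (15.4%, against 0.592% of all genes), with a median of 0.34. Usp18, which removes the modifier Isg15, read 8.28 to 8.35 in Comma-D and 9.24 to 9.35 in the fraction, a rise of 0.97 (adjusted p = 0.0444). Irf7, a transcription factor of the response, rose by 0.64, the antiviral GTPase Mx2 by 0.55 and Parp14 by 0.43, and Ifit1 stood at 0.67, uncalled. No member was called with either rescaling, or without replicate 1 or 2 of the fraction or Comma-D replicate 2. With the replicate block 5 rose, with the 6 compared arrays alone 12, and with array weights, whose estimation stopped before convergence, 14. Over all genes the rises also went up, from 118 to 163, 580 and 1448 in those fits. Of 27 genes of cholesterol and fatty acid synthesis 1 (3.7%, against 1.68% of all genes), Tm7sf2, was called, at 0.54 (adjusted p = 0.0421, highest 0.714). With the 6 compared arrays alone 7 rose, and with array weights 13, in fits that called 580 and 1448 rises among all genes. Differences were above 0 for 27 of 27, against 11007 of all 19938 genes, and the median was 0.37. The members do not vary independently, so this count describes the arrays and is no test. The largest, Hmgcs1 at 1.18, read 9.17, 9.53 and 9.80 against 8.26 to 8.41 and was not called (adjusted p = 0.234).

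Other programmes showed no called member. None was called among 29 mitosis genes, whose median of 0.19 became -0.25 without replicate 3 of the fraction and 0.48 without its replicate 2. Nor was any among 30 DNA replication genes, 24 arrest and p53 genes, 22 ribosomal protein genes, 16 cytosolic heat shock genes or 31 unfolded protein and amino acid stress genes (median -0.12). Over all genes 1.68% were called, so the absence of calls in lists of this size does not set them apart from all genes. The absence of a call does not show that levels were equal: Mki67 read 9.06 to 9.20 in Comma-D and 9.00, 8.67 and 10.05 in the fraction, a spread wider than the shift of 0.11.

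**Figure D4:**
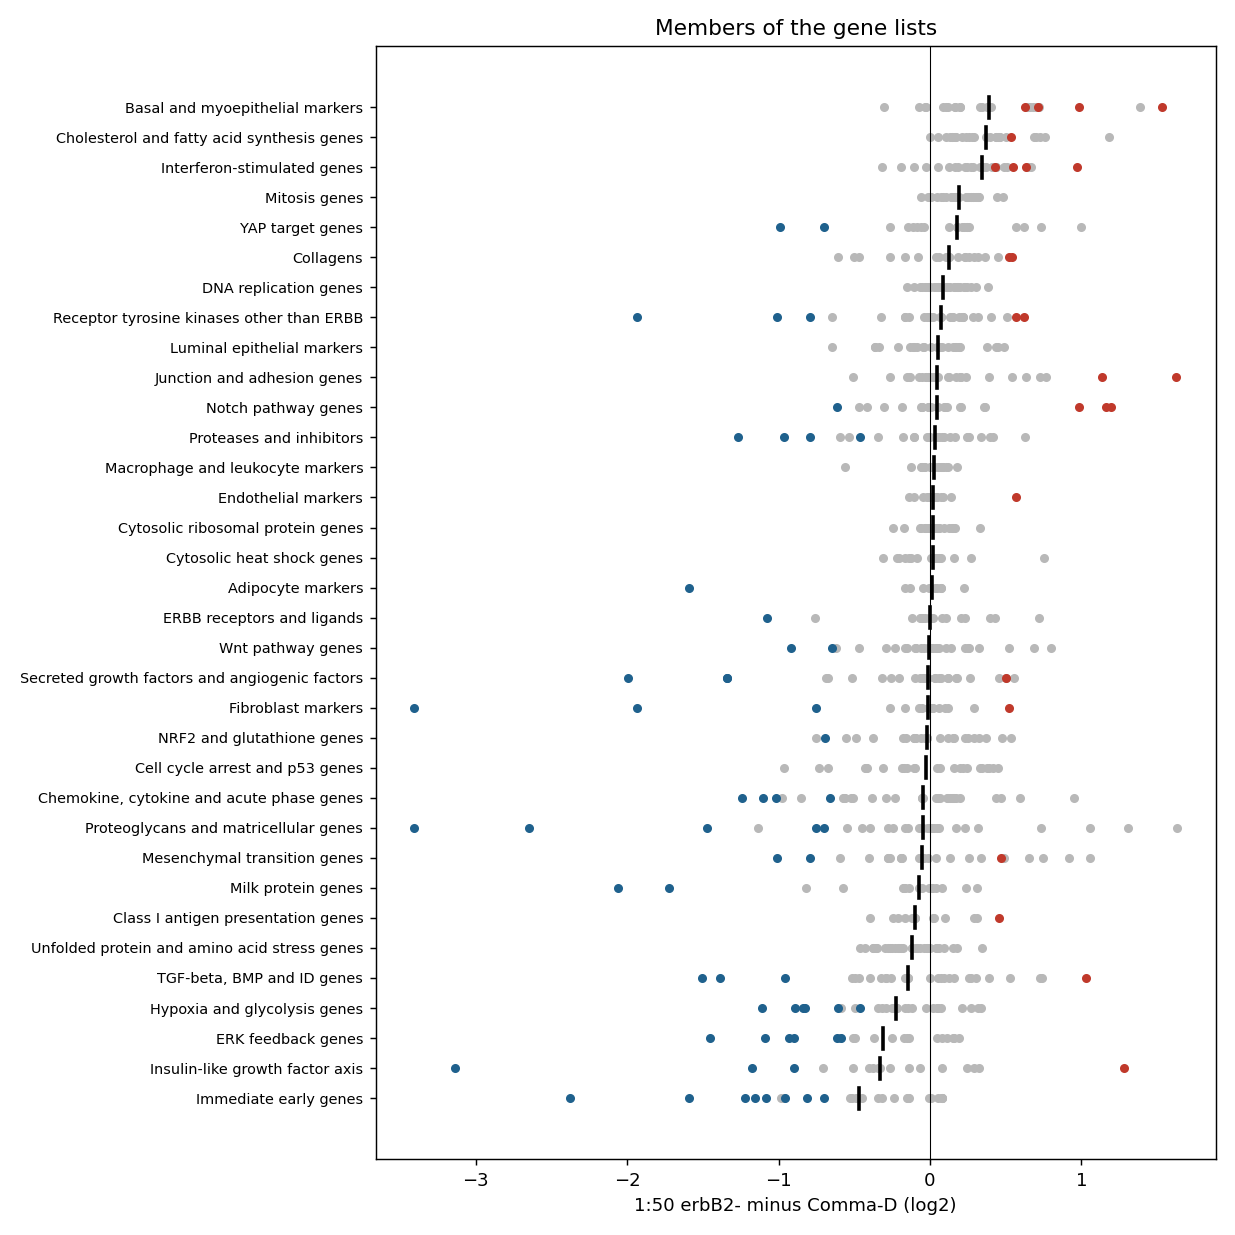
Each point is a measured member of a gene list, placed by its difference between the 1:50 erbB2-negative fraction and Comma-D (log2 units), red where called higher, blue where called lower and grey otherwise, with black bars at list medians. Medians run from -0.47 for immediate early genes to 0.39 for basal and myoepithelial markers.

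Genes that separate the lines were read in the fraction as a measure of MMTV-neu RNA. Hoxc10, a homeobox gene, read 8.58 to 8.91 in MMTV-neu, 4.90 to 5.14 in Comma-D and 5.02 to 5.11 in the fraction, inside the Comma-D range. Krt8 read 11.22 to 11.46 in MMTV-neu, 7.15 to 7.70 in Comma-D and 7.65 to 8.20 in the fraction, a difference of 0.49 (adjusted p = 0.366). Foxa1, a transcription factor of luminal cells, and Tbx2, a T-box factor, lay at 7.75 to 7.90 and 6.95 to 7.19 in the fraction, against 7.20 to 7.70 and 6.78 to 6.94 in Comma-D. Foxa1 and Tbx2 thus lay just above the Comma-D range and far below MMTV-neu (9.82 to 10.31 and 9.19 to 9.48). The X-inactivation transcript Xist read 11.73 to 11.80 in the fraction, 11.70 to 11.78 in Comma-D and 5.41 to 6.25 in MMTV-neu.

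Against the erbB2-positive cells of the same 1:50 mixture, the fraction differed at 2 genes (0.01%) in limma, while 2675 had an unadjusted p under 0.05. Krt8 read 10.76, 10.16 and 10.19 in the positive fraction against 7.85, 8.20 and 7.65 in the negative one, a difference of -2.47 (adjusted p = 7.09e-06). Snora20, a small nucleolar RNA, read 7.90, 8.81 and 7.64 against 5.80, 5.51 and 5.69, a difference of -2.45 (adjusted p = 5.4e-05). A fit of these 6 arrays alone called 0 genes, and array weights, whose estimation stopped before convergence, called 7024. The same replicate numbers deviated together in both fractions (r = 0.34, 0.31 and 0.70 across genes), and a fit of the 12 co-culture arrays with the replicate number as a block called the same 2 genes. In that limma fit the adjusted p was larger, 0.000284 for Krt8 and 0.00514 for Snora20. Erbb2 differed by 0.05 and was not called. Krt5, Dcn and Fos, which set the fraction apart from Comma-D, differed from the positive fraction by 0.16, 0.01 and 0.14, uncalled. The comparison shares the fraction's arrays with that against Comma-D.

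Against the erbB2-negative fraction of the 1:1 mixture, limma called 6041 genes (30.3%), 70.7% of them higher at 1:50. That split depends on scaling. Centring on reference genes, whose mean was 0.40 higher at 1:50, moved the median of all genes from -0.04 to -0.43 and left 5.85% of 6907 calls higher, and after quantile normalization 46.2% of 810 calls were higher. Only 2 genes were called from these 6 arrays alone, 1065 without replicate 1 of the 1:1 fraction, and 9438 with the replicate number as a block in the 12 co-culture arrays, where the same numbers deviated together (r = 0.34, 0.22 and 0.43).

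Krt8 was lower at 1:50, with a difference of -2.86 (adjusted p = 7.31e-07) and levels of 11.12, 10.70 and 10.46 in the 1:1 fraction, and so was Hoxc10 at -1.49 (adjusted p = 0.00148), with 7.14, 6.18 and 6.36. Higher at 1:50 were the cytokine Il6 by 2.22, the epithelial transcription factor Ehf by 2.15, the receptor Kit by 1.92 and the tight junction protein Cldn1 by 1.89 (adjusted p = 7.81e-05 to 0.000672). Each of these 6 kept its direction with both rescalings and its call with each, and all but Krt8 lost the call in the fit of the 6 arrays alone. With the replicate number as a block in the 12 co-culture arrays, limma's adjusted p was 6.41e-05 for Krt8 and 0.00139 for Hoxc10. It was 0.000542 to 0.00139 for Il6, Ehf, Kit and Cldn1. Dcn read 4.96 to 5.61 and Fos 8.38 to 9.14 in the 1:1 fraction, overlapping the 1:50 fraction, and Krt5 differed by 0.30 between them, uncalled. Of the 216 genes called lower at 1:50 than in Comma-D, 214 also had a 1:1 fraction mean below the Comma-D mean. Both differences share the Comma-D arrays, so this count is no separate test.

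**Figure D5:**
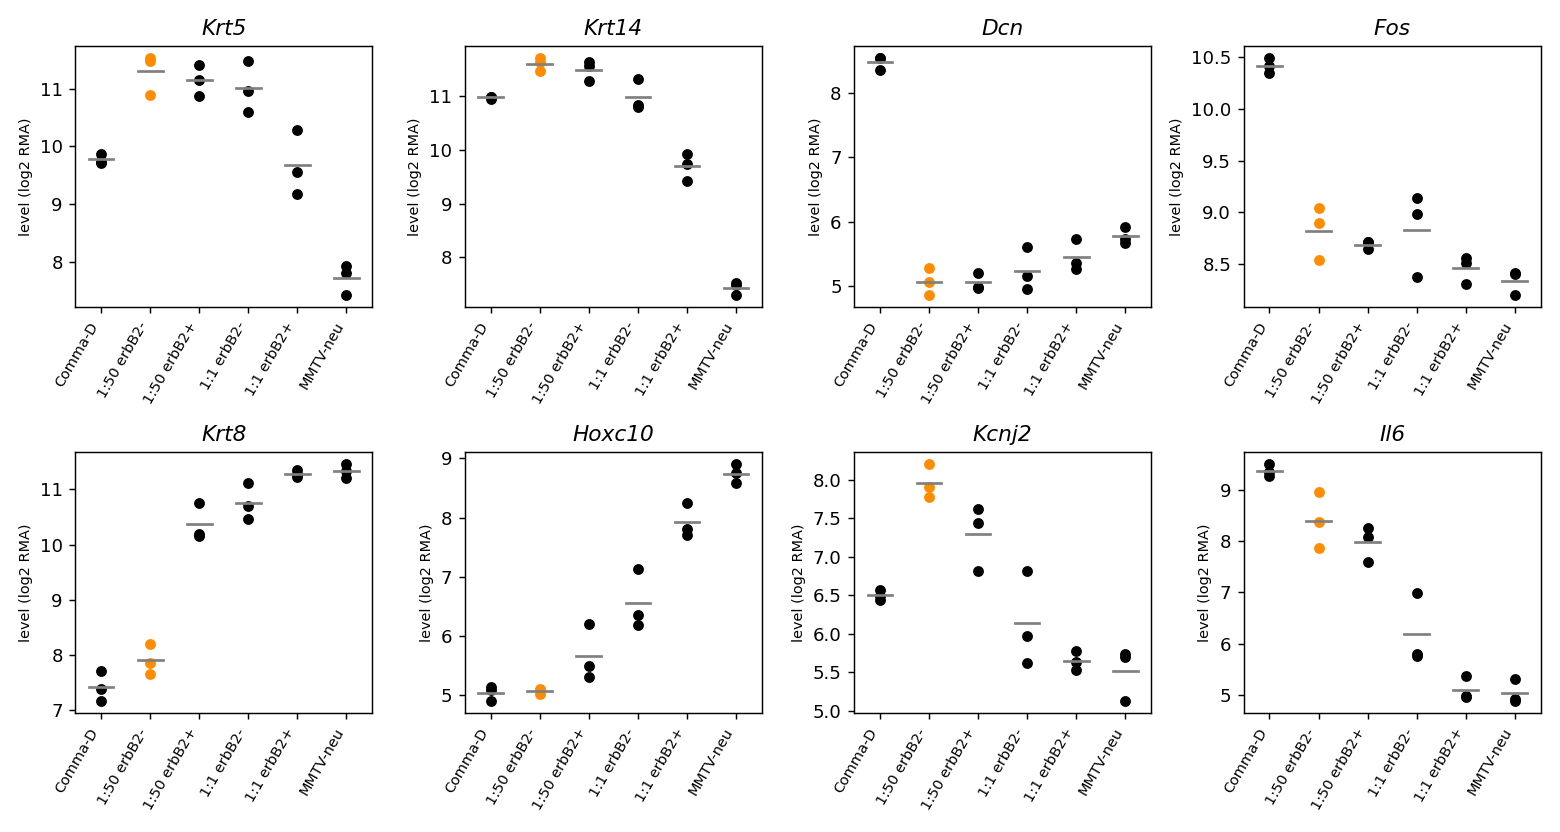
Levels (log2 RMA) of 8 genes on the 18 arrays by group, with the 1:50 erbB2-negative fraction in orange and grey lines at group means. The fraction sits with Comma-D for Krt8 and Hoxc10, with the other co-culture fractions for Dcn and Fos, above both lines for Krt5, Krt14 and Kcnj2, and nearer to Comma-D than to the 1:1 fractions for Il6.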

How the data were processed

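RNA of 18 samples in 6 groups of 3 had been hybridised to mouse gene arrays. Groups and replicate numbers come from the titles. The authors deposited log2 values. The submitters' processing notes name RMA, limma and R 3.1.2. Any further upstream step, and the genome build, were not given in the sources used here. Of 35556 probe sets, 21789 name a single gene, 1621 name several genes and were left out, and 12146 are not in the probe annotation. Each of 19938 genes was represented by its single-gene probe set with the highest mean over the 18 arrays, without a filter on low levels.

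One linear model with a mean per group was fitted to all 18 arrays by lmFit and eBayes (limma 3.58.1, R 4.3.3), leaving 12 residual degrees of freedom. P-values are two-sided, a gene was called when its p, adjusted by Benjamini and Hochberg's method across all genes, was below 0.05, and the code was tested on simulated data. Intervals are at 95%. Gene lists, 34 in all, are described by counts and medians only. Members and lists were chosen with earlier results of these data known. The genes named are the 15 with the largest called difference each way (8 each way for other fractions), up to 6 members of each list and 20 set markers. Ccl9, Fosl1, Egr2, Dusp1, Pfkl, Parp14, Pdgfa, Jun, Junb, Ldha, Pgk1, Acta2, Mki67, Reck, Foxc2 and Snord82 fall outside this rule and were chosen after their values were seen. Uncalled members also named outside it are Igf1r, Csn1s1, Csn2, Atf3, Spry4, Etv4, Dusp4, Slc2a1, Krt15, Krt16, Krt6a, Lamb3, Dll1, Dll3 and Dll4. Alternatives were a filter on low levels, other gene values, priors, weights, scalings, sets of arrays, thresholds, a replicate block and leaving out each array. A replicate block in the 12 co-culture arrays was added after the data were seen. Equal replicate numbers of the co-culture fractions deviated together (lowest r across genes 0.31 between both 1:50 fractions and 0.22 between both negative fractions), so these numbers pair samples there. Between the fraction and Comma-D they did not.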

Additional observations from a re-analysis of the deposited data

Results flagged for a closer look

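The 1:50 and 1:1 erbB2-negative fractions, which carry the same label, differed from each other at 6041 genes (30.3%) in a test of that difference. That count was 810 after quantile normalization and 2 in a fit of their 6 arrays alone. The 1:50 erbB2-negative and erbB2-positive fractions differed at 2 genes (0.01%), Krt8 and Snora20, and at 0 in a fit of their 6 arrays alone. Kcnj2 was 1.82 log2 units higher in the 1:50 than in the 1:1 negative fraction (adjusted p = 0.000808, and 0.0614 in a fit of those 6 arrays alone). It read 7.77 to 8.20 in the first, 5.63 to 6.82 in the second, 6.44 to 6.57 in Comma-D and 5.12 to 5.74 in MMTV-neu.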

How the results depend on the processing

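Against Comma-D the count of 334 lay between 258 and 426 with the low-level filter, both other gene values, trend and robust priors, the fit without MMTV-neu and the replicate block. It was 2425 with array weights, whose estimation stopped before convergence, 1045 with the 6 compared arrays alone, 132 with centring, 157 after quantile normalization, 144 at an adjusted p under 0.01 and 101 with at least 1 log2 unit, and it ranged from 146 to 289 with single arrays left out. The replicate block gave 426 calls there, 7692 against the 1:1 negative fraction and 3 against the 1:50 positive fraction. Same-numbered Comma-D and fraction arrays did not deviate together (r of deviations -0.02, 0.06 and 0.04 across genes), so their numbers were not taken as pairs. Against the 1:1 fraction the count of 6041 became 14356 with array weights, 810 after quantile normalization, 2 with the 6 compared arrays alone, 9438 with the replicate block in the 12 co-culture arrays, 1174 at an adjusted p under 0.01 and 230 with at least 1 log2 unit, and ranged from 1065 to 8726 with single arrays left out. Against the 1:50 positive fraction the count of 2 became 1 with the low-level filter, 7024 with array weights and 0 with the 6 compared arrays alone, and centring moved the median of all genes there from 0.00 to -0.21. Of 242 genes in the pool of named genes 90 were called, 40 of them in every alternative, and none changed sign. The cause of these shifts was not tested. At levels near the array median background limits what can be measured.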

Other observations

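Of 27 proteases and protease inhibitors 4 fell (14.8%, against 1.08% of all genes) and none rose, with a median of 0.03. None of the 4 was called with centring on reference genes, and 2 fell after quantile normalization, without replicate 2 of the fraction or without Comma-D replicate 2. Mmp2, a gelatinase, read 10.05 to 10.09 in Comma-D and 8.98 to 9.56 in the fraction and fell by 0.79 (adjusted p = 0.00237, and 0.0695 with centring). Mmp19 fell by 0.97 (adjusted p = 0.00654, and 0.0779 with centring), Mmp13, a collagenase, by 1.27 (adjusted p = 0.0469, highest over the alternatives 0.218) and Reck, a membrane inhibitor of such proteases, by 0.46. The tissue factor gene F3, which starts blood clotting, read 8.04 to 8.19 against 6.97 to 7.18 and fell by 0.99 (adjusted p = 0.000893). Il33, an alarm cytokine, read 6.18 to 6.67 against 5.36 to 5.57 and fell by 1.02 (adjusted p = 0.000392) to below the array median. In the Wnt list 2 of 30 genes fell (6.67%, against 1.08% of all genes), the secreted inhibitor Wif1 by 0.92 and the co-receptor Lrp5 by 0.65. After quantile normalization neither was called, and 1 fell with centring or without replicate 2 of the fraction or Comma-D replicate 3.

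The neural progenitor filament gene Nes read 5.79 to 5.98 in Comma-D and 6.91, 6.91 and 7.45 in the fraction, a rise of 1.20 (adjusted p = 0.00942, highest over the alternatives 0.183). Of 51 small nucleolar RNA genes 1, Snord82, was called, a share near the 1.68% of all genes, at -0.71 (adjusted p = 0.00575), with a median of -0.14 over the 51. Gzmb, a protease gene of cytotoxic lymphocytes, read 6.33 to 6.85 in Comma-D and 4.66 to 4.86 in the fraction and fell by 1.85 (adjusted p = 4.88e-08) to below the array median, while none of 19 leukocyte markers was called.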
